A study of Saccharomyces cerevisiae with 12 samples.

Results

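Ribonucleotide reductase is the enzyme that turns ribonucleotides into the deoxyribonucleotides from which DNA is built, and 8 budding yeast genes that encode the enzyme or control it are described here by where, and how often, their mRNAs were cleaved and polyadenylated. They are RNR1 and RNR3 (large subunits), RNR2 and RNR4 (small subunits), SML1 and HUG1 (protein inhibitors), DUN1 (a checkpoint kinase) and CRT10 (a regulator of RNR transcription). The genes were taken by name from the poly(A) site profiles of the series, where all 8 were found among 5798 open reading frames (ORFs). Poly(A) sites had been mapped by 3′ READS, a method that sequences the junction between an mRNA and its poly(A) tail, in 2 strains of Saccharomyces cerevisiae. The first strain lacked RPB4, which encodes a subunit of RNA polymerase II (rpb4Δ, RPB4::HIS3), and the second lacked UBP8, which encodes the ubiquitin protease of the SAGA coactivator (ubp8Δ, UBP8::HIS3). Both strains also carried a triple FLAG tag on the polymerase subunit Rpb3 (RPB3::RPB3-3xFLAG NAT), and both were grown in YPD medium at 30°C to mid-log phase with no drug or DNA damage. No untagged or wild-type profile was analysed here, so each comparison is rpb4Δ against ubp8Δ and cannot assign a difference to either deletion.

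The enzyme works as a complex of large and small subunits, of which Rnr1, Rnr2 and Rnr4 serve dividing cells and Rnr3 is made mainly after DNA damage. Supply is held in check by Sml1, which binds Rnr1, and by the transcriptional repression of RNR genes. When replication stalls, the kinases Mec1, Rad53 and Dun1 bring about the destruction of Sml1 and the relief of that repression.

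Each strain had 2 biological replicates, but they were pooled into 1 profile, so no difference below has a replicate check and no p-value is given. The intervals are 95% intervals for counting error only. The study's methods mention no molecular identifiers, and PCR copies counted as reads would make the intervals too narrow. A profile lists the poly(A) signal at each of the 400 nucleotides (nt) after the stop codon, here called the window. Window levels are in RPM, the reads counted in every 1000000 of the library, where each read marks the 3′ end of 1 cDNA, so they were not divided by gene length. One read was worth 0.395 RPM in rpb4Δ and 0.0614 RPM in ubp8Δ, and the ORF windows held 1977159 reads in rpb4Δ and 13034210 in ubp8Δ. The deeper ubp8Δ library therefore gave the narrower intervals throughout. The deleted genes fitted the strain names: RPB4 had 0 RPM within its ORF in rpb4Δ (3 reads would be 1.19 RPM) and 15.0 RPM in ubp8Δ, and UBP8 had 4.75 RPM in rpb4Δ and 0 RPM in ubp8Δ (3 reads would be 0.184 RPM).

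The main sites of the genes are shown as 30 bases of the R64 genome (the RefSeq copy of SacCer3), because the comparisons turn on which of them was used. Each sequence reads 5′ to 3′ on the mRNA strand, with T for U, and the capital is the last base before the tail, at position 21 of the stretch.
RNR1, 52 nt after the stop codon, chrV:301648-301677, plus strand: tttatcaaaatttgggtgttTacttcgagg
RNR1, 64 nt, chrV:301660-301689, plus strand: tgggtgtttacttcgaggtgTaatttatat
RNR1, 168 nt, chrV:301764-301793, plus strand: ctaattatttttctactttgCatatataca
RNR3, 142 nt, chrIX:237948-237977, minus strand: gctaataaaattatttctttTacattcttt
RNR2, 119 nt, chrX:393702-393731, plus strand: tataaacttttttttatattGaatctaata
RNR2, 141 nt, chrX:393724-393753, plus strand: atctaatatattatcaaacgGaaacttcgg
RNR4, 114 nt, chrVII:855141-855170, minus strand: aaatttaaaaagaaactacaGttttttttt
SML1, 264 nt, chrXIII:159941-159970, plus strand: cagctagatatcgctagcgcCaacattgtc
SML1, 284 nt, chrXIII:159961-159990, plus strand: caacattgtccccctctcttGatcaatgct
HUG1, 132 nt, chrXIII:159078-159107, plus strand: aattgacgtttttttttggcCaacatttga
DUN1, 115 nt, chrIV:280183-280212, minus strand: ttgttagcctttcttaatccTaatatgatg
DUN1, 143 nt, chrIV:280155-280184, minus strand: tgtgccaccctatcgtttttTaccatttgc
DUN1, 203 nt, chrIV:280095-280124, minus strand: ttttaaccttaacccgcataTaaaaaatgt
CRT10, 50 nt, chrXV:207333-207362, minus strand: ataataatccttccttcattGaaatgcgcg

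None of the 247 positions with a read in any of the 8 windows was an A, although the base after it was an A at 104 of them. The same held over all ORF windows, where 0% of reads lay on an A while 84.0% of rpb4Δ reads and 83.4% of ubp8Δ reads had an A as the next base. A genomic A next to the tail cannot be told from the tail itself, so each site is recorded before any run of As, and the true end may lie within that run, as after the capital of RNR2 at 141 nt. Reads were also required to align uniquely over 17 bases. At 101 window positions the 17 bases ending there occur elsewhere in the genome. Of these positions 0 held a read, and 50 of them were in RNR2 and 22 in SML1. Cleavage at those positions could not have been seen.

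Among the sequence elements known for yeast 3′ ends, the efficiency element TATATA was present on the mRNA strand of 7 of the 8 windows, HUG1 being the exception, against 60.9% of all ORF windows. TACATA, which differs from it by 1 base, was also in 7 of 8, with RNR3 the exception, against 34.0% of ORF windows. AATAAA was in 2 of the 8, RNR3 and RNR2, against 45.2%. In RNR1 the first TATATA began 136 nt after the stop codon, so the sites at 52, 64, 82 and 114 nt had none upstream within the window, whereas the site at 168 nt lay 32 nt after its start. In SML1, 10 overlapping or neighbouring TATATA matches lay between 149 and 178 nt, upstream of all its main sites. A match is only a match of letters and no use of any element was measured.

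Among the 8 genes, 5 (RNR1, RNR2, SML1, DUN1 and CRT10) had at least 20 window reads in both strains, as did 4248 of all ORFs, and these ORFs are the background for the counts that follow. RNR3, RNR4 and HUG1 did not pass in rpb4Δ. Of the 5 genes, 2 had a window level at least 2-fold lower in rpb4Δ (RNR1 and RNR2), against 11.4% of the background ORFs. A level at least 2-fold higher was found in 0 of them, against 19.0%. The 20-read minimum cuts at a higher level in rpb4Δ (0.395 RPM per read) than in ubp8Δ (0.0614 RPM per read). Over the 5289 ORFs with any read in both strains, 17.7% were at least 2-fold lower and 18.9% at least 2-fold higher. The weighted average position of the poly(A) signal differed by at least 10 nt in 1 of the 5 (RNR1), against 39.2% of ORFs. The highest site was at the same nucleotide in both strains in 2 of the 5 (RNR2 and CRT10), against 60.5%. The median log2 ratio of window level, rpb4Δ over ubp8Δ, was -0.56 over the 5 genes and 0.15 over the background.

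**Figure D1:**
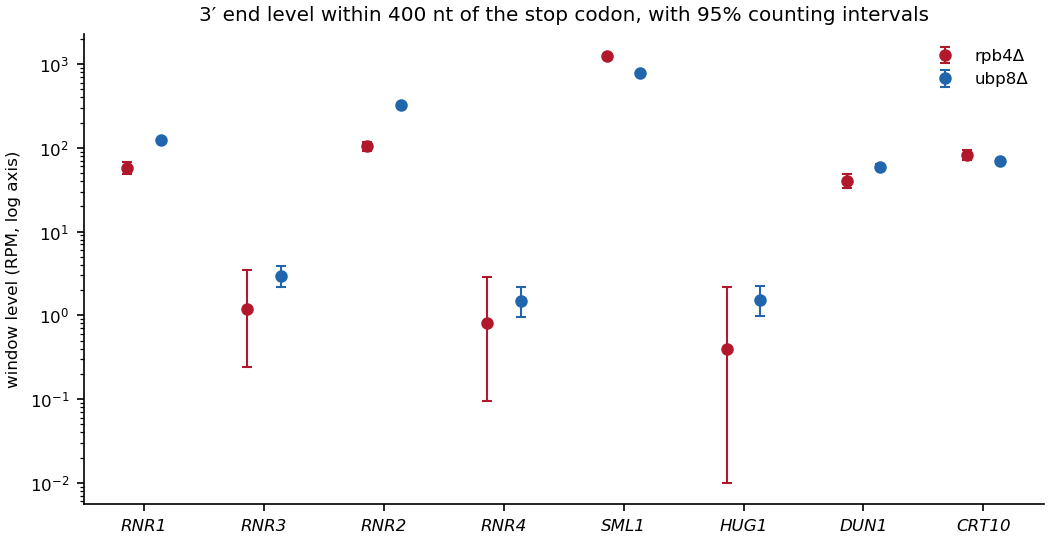
Window level of the 8 genes in RPM on a log axis, with rpb4Δ in red left of ubp8Δ in blue; bars are 95% counting intervals. SML1 stands highest in both strains, at 1232 RPM in rpb4Δ and 782 RPM in ubp8Δ, while RNR3, RNR4 and HUG1 lie below 3 RPM in both.

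The large subunit gene RNR1 (YER070W, chrV:298950-301616, plus strand) had fewer 3′ ends in rpb4Δ, and those it had lay farther from the stop codon. Its window held 57.0 RPM in rpb4Δ (144 reads, 48.0 to 67.0) and 123 RPM in ubp8Δ (2007 reads, 118 to 129). The intervals were apart, and the ratio of rpb4Δ to ubp8Δ was 0.462 (0.387 to 0.547), a log2 ratio of -1.11. Among the background ORFs 9.25% had a lower ratio. The weighted average position was 128 nt in rpb4Δ and 103 nt in ubp8Δ, a difference of 25.2 nt with a standard error of 3.35 nt, and 85.1% of ORFs had a smaller difference in either direction.

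The large sites nearest the stop codon, at 64 and 52 nt, carried most of this contrast. The site at 64 nt held 6 reads in rpb4Δ, 4.17% of the window, and 469 reads in ubp8Δ, 23.4% of the window. The site at 52 nt held 3 reads (2.08%) in rpb4Δ and 304 (15.1%) in ubp8Δ. In RPM the rpb4Δ to ubp8Δ ratio was 0.0823 at 64 nt (0.0301 to 0.181) and 0.0635 at 52 nt (0.0130 to 0.187). The site 18 nt farther on, at 82 nt, was lower by less, with 6.33 RPM in rpb4Δ and 15.0 RPM in ubp8Δ, a ratio of 0.422 (0.237 to 0.699). From 87 nt onwards the intervals of the ratio included equality at each site with at least 5% of the reads in either strain, other than that at 146 nt. The site at 114 nt had 6.33 RPM in rpb4Δ and 7.37 RPM in ubp8Δ, and the site at 168 nt, the highest in rpb4Δ, had 8.30 RPM in rpb4Δ and 6.08 RPM in ubp8Δ. Which rpb4Δ site was highest was not resolved, with 21 reads at 168 nt, 18 at 167 nt and 16 each at 82 and 114 nt. The site at 146 nt lay on the other side, with 13 reads (5.14 RPM) in rpb4Δ and 14 reads (0.860 RPM) in ubp8Δ, a ratio of 5.98 (2.59 to 13.7).

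Blocks of positions, drawn after the profiles had been seen, summarise the gene. Within 75 nt of the stop codon lay 6.25% of the rpb4Δ reads (Wilson interval 3.32 to 11.5%) and 41.7% of the ubp8Δ reads (39.5 to 43.8%). Between 101 and 200 nt the shares were 69.4% in rpb4Δ (61.5 to 76.4%) and 30.6% in ubp8Δ (28.6 to 32.6%). As levels, the first block had 3.56 RPM in rpb4Δ and 51.4 RPM in ubp8Δ and made up 72.1% of the whole difference in level. The block from 101 to 200 nt had 39.5 RPM in rpb4Δ and 37.7 RPM in ubp8Δ, a ratio of 1.05 (0.840 to 1.30). Past 200 nt rpb4Δ had 0 of 144 reads, where 3 reads would be a share of 2.08% and the Wilson upper limit is 2.60%, and ubp8Δ had 81 reads, 4.04%, most of them at 255 and 375 nt. The difference in average position depended on how As were treated. Both proximal sites are followed by a genomic A, and so are the distal sites at 114, 146, 161 and 168 nt. Leaving out all such positions removed 66.7% of the RNR1 reads in rpb4Δ and 67.6% in ubp8Δ. The difference was then 2.89 nt and no longer reached 10 nt.

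**Figure D2:**
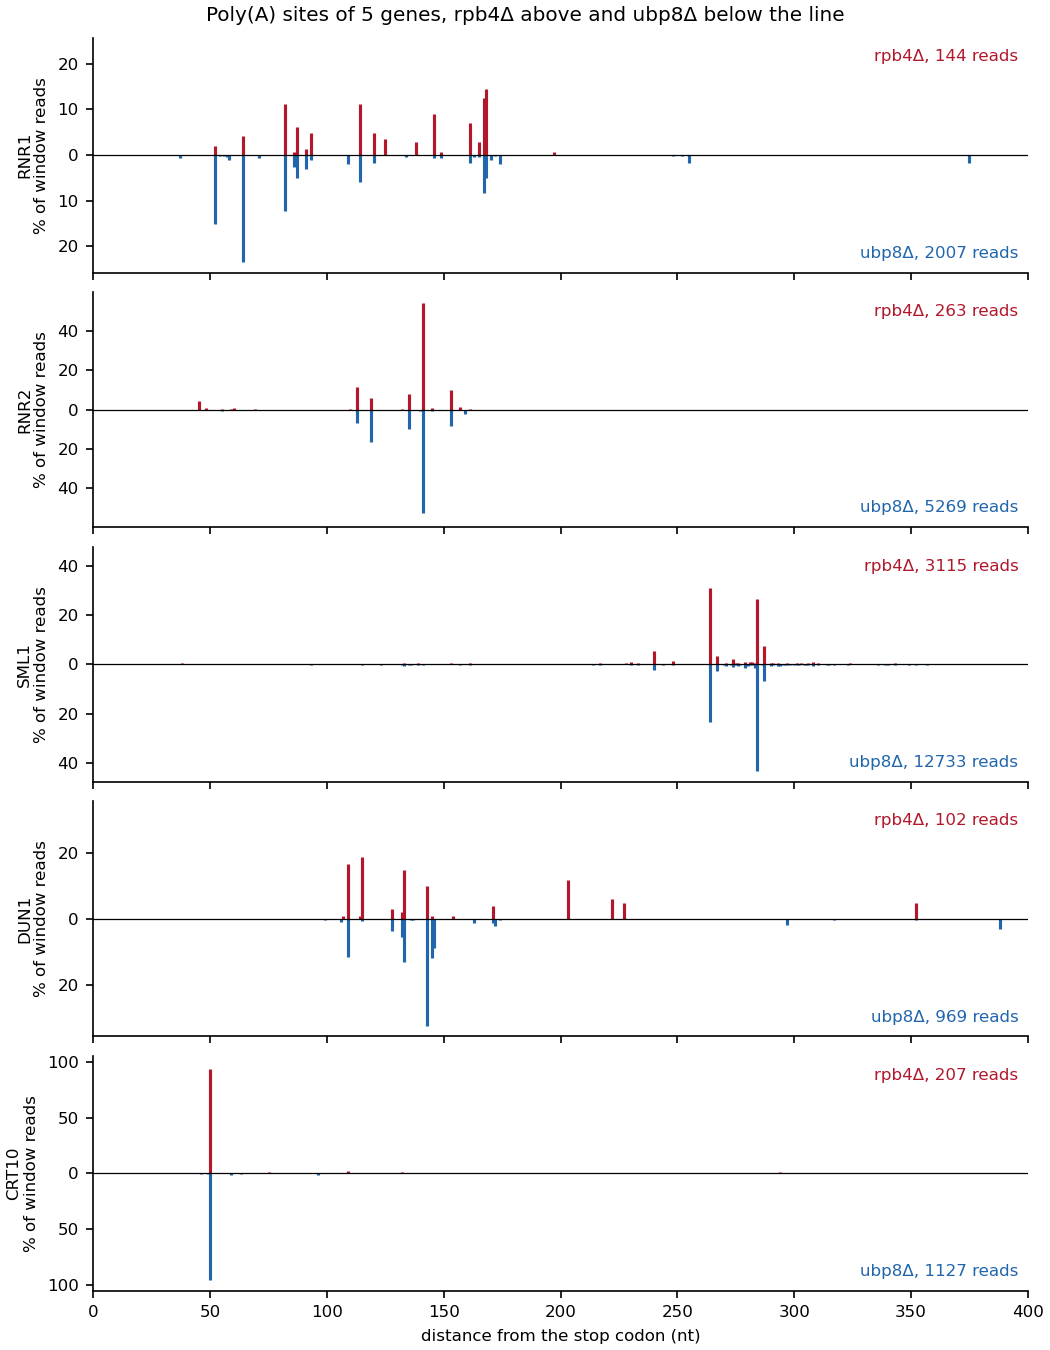
Percent of window reads at each distance from the stop codon (nt) for the 5 genes with at least 20 reads in both strains, with rpb4Δ drawn upwards in red and ubp8Δ downwards in blue. In RNR1 the sites at 52 and 64 nt hold 2.08% and 4.17% of reads in rpb4Δ and 15.1% and 23.4% in ubp8Δ, while RNR2 and CRT10 keep their highest site, at 141 and 50 nt.

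RNR1 also had reads that ended inside the ORF. They amounted to 13.1 RPM at 11 positions in rpb4Δ and 33.7 RPM at 34 positions in ubp8Δ. As a share of ORF plus window signal, they made up 18.7% in rpb4Δ (13.6 to 25.0%) and 21.5% in ubp8Δ (19.9 to 23.1%), intervals that overlapped. Over the background ORFs the median share was 2.65% in rpb4Δ and 9.61% in ubp8Δ, so RNR1 lay above the median in both strains. The lower level in rpb4Δ was thus present in ORF and window alike, and the log2 ratio of both summed was -1.16.

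The second large subunit gene, RNR3 (YIL066C, chrIX:238099-240708, minus strand), is the paralog of RNR1 that is induced by DNA damage. Its signal was low, and in rpb4Δ it was near the limit of detection. It had 1.19 RPM in rpb4Δ, 2 reads at 144 nt and 1 at 148 nt, and 2.95 RPM in ubp8Δ, 27 reads at 142 nt and 21 at 144 nt. All sites fell within 6 nt of one another. The ratio of rpb4Δ to ubp8Δ was 0.403 with an interval of 0.0801 to 1.25, so no difference in level was detectable at this depth. Inside the ORF there were 3 reads in rpb4Δ and 24 in ubp8Δ. The window level of RNR1, in RPM with 1 read for each end, was thus far above that of RNR3 in both strains.

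The small subunit gene RNR2 (YJL026W, chrX:392404-393603, plus strand), whose product holds the radical on which catalysis depends, had the widest gap in level of the 5 genes and kept its main site. The window held 104 RPM in rpb4Δ (263 reads, 91.8 to 117) and 324 RPM in ubp8Δ (5269 reads, 315 to 333). The ratio of rpb4Δ to ubp8Δ was 0.321 (0.283 to 0.364), or -1.64 on the log2 scale, and 3.91% of background ORFs had a lower ratio. In both strains the highest site was at 141 nt, with 54.4% of reads in rpb4Δ and 52.5% in ubp8Δ. The average position was 131 nt in rpb4Δ and 135 nt in ubp8Δ, a difference of -4.07 nt with a standard error of 1.59 nt. Its direction was not stable: it was 1.12 nt with sites of at least 5% of the signal, 0 nt with the weighted median and -31.3 nt without positions followed by a genomic A. The last of these settings removed 91.6% of the RNR2 reads in rpb4Δ and 96.7% in ubp8Δ.

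The sites of RNR2 did not scale alike. The main site at 141 nt had 56.5 RPM in rpb4Δ and 170 RPM in ubp8Δ, a ratio of 0.333 (0.279 to 0.394) that was close to that of the whole window. The site at 119 nt had 16 reads (6.08%) in rpb4Δ and 866 reads (16.4%) in ubp8Δ, a ratio in RPM of 0.119 (0.0676 to 0.194). Only 6 nt upstream, the site at 113 nt had 30 reads (11.4%) in rpb4Δ and 353 reads (6.70%) in ubp8Δ, a ratio of 0.547 (0.364 to 0.795). The intervals of these neighbours did not overlap, and their order was opposite in the strains, with 113 nt above 119 nt in rpb4Δ and below it in ubp8Δ. Close to the stop codon, the site at 45 nt had 12 reads (4.56%) in rpb4Δ and 4 reads (0.0759%) in ubp8Δ. Reads inside the ORF were few, 1.52% of ORF plus window signal in rpb4Δ and 1.62% in ubp8Δ, below the background medians in both strains.

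RNR4 (YGR180C, chrVII:855264-856301, minus strand) encodes the partner of Rnr2 in the small subunit, yet its profile was unlike that of RNR2. Only 2 window reads were present in rpb4Δ, at 10 and 44 nt, giving 0.800 RPM. The 24 reads in ubp8Δ gave 1.47 RPM, with 14 at 114 nt, 4 at 188 nt and the rest between 125 and 199 nt. The ratio of rpb4Δ to ubp8Δ was 0.544 with an interval of 0.0614 to 2.16, so no difference was detectable at this depth. More of its signal lay inside the ORF, with 14 reads (5.58 RPM) at 11 positions in rpb4Δ and 132 reads (8.09 RPM) at 26 positions in ubp8Δ. The ORF share was 87.5% in rpb4Δ (64.0 to 96.5%) and 84.6% in ubp8Δ (78.1 to 89.4%). Such a share was not confined to RNR4: of the 2710 ORFs with at least 100 ORF reads in ubp8Δ, 324 had a higher one. That set was picked for many ORF reads, and 109 of it had fewer window reads than RNR4. The window of RNR4 meets the ORF of OKP1 at 369 nt, and 0 reads lay in the overlap in either strain. At 9 window positions, among them 56 to 61 nt, the 17 bases ending there are repeated in the genome. Sites past 400 nt were not covered either, so the low window level is that of the positions recorded.

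SML1 (YML058W, chrXIII:159383-159697, plus strand), the inhibitor of Rnr1, was the gene of the set with the most 3′ ends and was higher in rpb4Δ. The window held 1232 RPM in rpb4Δ (3115 reads, 1189 to 1276) and 782 RPM in ubp8Δ (12733 reads, 769 to 796). By window level it was number 96 of the 5798 ORFs in rpb4Δ and number 165 in ubp8Δ. The ratio of rpb4Δ to ubp8Δ was 1.57 (1.51 to 1.64), or 0.65 on the log2 scale, which is below 2-fold, and 70.7% of background ORFs had a lower ratio. The 3′ ends lay farther from the stop codon than in any other of the 5 genes, at an average of 266 nt in rpb4Δ and 274 nt in ubp8Δ, while the background medians were 122 nt in rpb4Δ and 123 nt in ubp8Δ. The difference of -7.37 nt had a standard error of 0.730 nt, and 52.5% of ORFs had a smaller one in either direction.

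The highest site of SML1 was at 264 nt in rpb4Δ and at 284 nt in ubp8Δ. At 264 nt there were 971 reads (31.2%) in rpb4Δ and 2959 reads (23.2%) in ubp8Δ. At 284 nt there were 820 reads (26.3%) in rpb4Δ and 5518 reads (43.3%) in ubp8Δ. Reads at 264 nt per read at 284 nt were 1.18 in rpb4Δ (1.08 to 1.30) and 0.536 in ubp8Δ (0.513 to 0.561). As levels, the site at 284 nt was nearly equal, with 324 RPM in rpb4Δ and 339 RPM in ubp8Δ and a ratio of 0.956 (0.888 to 1.03). The higher level in rpb4Δ lay in other sites: 264 nt had a ratio of 2.11 (1.96 to 2.27), 287 nt a ratio of 1.70 (1.47 to 1.97) and 240 nt, with 67.6 RPM in rpb4Δ and 19.0 RPM in ubp8Δ, a ratio of 3.55 (2.93 to 4.29).

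Around these peaks SML1 had many weak sites. Reads were found at 92 positions in rpb4Δ and 94 in ubp8Δ, while the background medians were 13 in rpb4Δ and 19 in ubp8Δ. Only 9 positions in rpb4Δ and 8 in ubp8Δ held 1% or more of the signal. Counts of positions grow with reads, and SML1 had 3115 window reads in rpb4Δ and 12733 in ubp8Δ. The median over all ORFs was 78 window reads in rpb4Δ and 474 in ubp8Δ, and SML1 was not compared with ORFs of similar depth. Thinned to the 3115 reads of rpb4Δ, the ubp8Δ profile would show 80.0 positions on average. Of the sites, 66 were shared, which is 71.7% of those in rpb4Δ and 70.2% of those in ubp8Δ, and the shared sites held 97.1% of the reads in rpb4Δ and 97.3% in ubp8Δ. Between 201 and 300 nt lay 90.4% of reads in rpb4Δ and 92.2% in ubp8Δ. Inside its short ORF SML1 had 17 reads in rpb4Δ and 10 in ubp8Δ, that is 6.76 RPM in rpb4Δ and 0.610 RPM in ubp8Δ, a ratio of 10.9 (4.73 to 26.7), but these were 0.546% of its signal in rpb4Δ and 0.0779% in ubp8Δ. The first 100 nt of the window were alike in this, with 32 reads (12.7 RPM) in rpb4Δ and 27 reads (1.66 RPM) in ubp8Δ, a ratio of 7.63 (4.43 to 13.2).

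**Figure D3:**
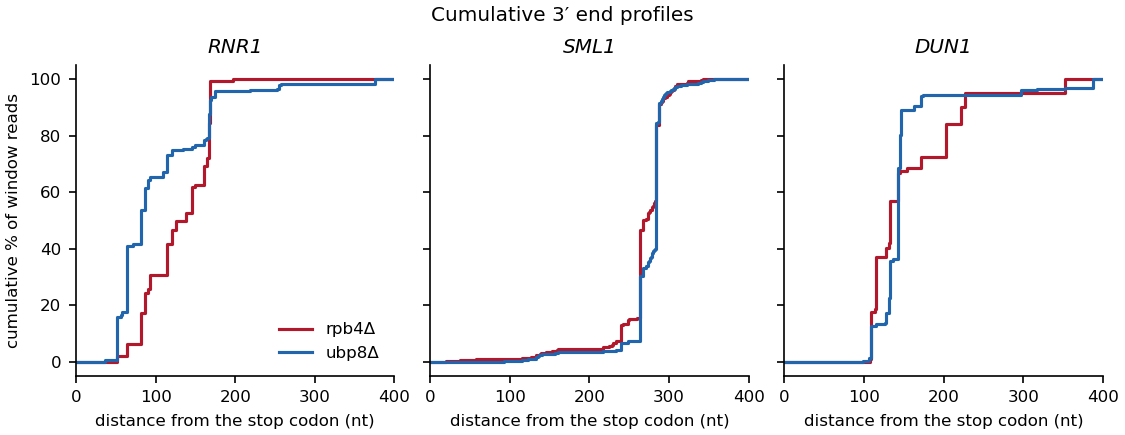
Cumulative percent of window reads against distance from the stop codon (nt) for RNR1, SML1 and DUN1, with rpb4Δ in red and ubp8Δ in blue. The RNR1 curves are apart up to 168 nt, the SML1 curves part between 240 and 284 nt, and the DUN1 curves cross near 143 nt.

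HUG1 (YML058W-A, chrXIII:158760-158966, plus strand) encodes an inhibitor, lies just upstream of SML1 and is induced by DNA damage and replication arrest. The gene was below the 3-read floor in rpb4Δ and low in ubp8Δ. It had 1 read at 152 nt (0.400 RPM) in rpb4Δ and 25 reads (1.54 RPM) in ubp8Δ, 12 at 132 nt, 11 at 140 nt and 2 at 157 nt. The ratio had an interval of 0.00627 to 1.57, so no difference was detectable. Inside the ORF there was 1 read in rpb4Δ and 0 in ubp8Δ. The damage-inducible genes RNR3 and HUG1 were thus both below 3 RPM in both strains, and RNR1 and SML1 were at 57.0 RPM or more. A low window level was not particular to the damage-inducible genes, since RNR4 had 0.800 RPM in rpb4Δ and 1.47 RPM in ubp8Δ. For RNR4 these are levels of the recorded window positions only, and its ORF held 5.58 RPM in rpb4Δ and 8.09 RPM in ubp8Δ.

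DUN1 (YDL101C, chrIV:280307-281848, minus strand), the kinase that acts on Sml1 and on RNR repression, had a scattered profile that differed between the strains site by site. Its window held 40.3 RPM in rpb4Δ (102 reads, 32.9 to 49.0) and 59.5 RPM in ubp8Δ (969 reads, 55.8 to 63.4), a ratio of 0.678 (0.547 to 0.831), which is under 2-fold. The highest site was at 115 nt in rpb4Δ, with 19 reads (18.6%) against 6 reads (0.619%) in ubp8Δ, a ratio in RPM of 20.4 (7.82 to 62.3). The sites at 109 nt (17 reads) and 133 nt (15 reads) came close to it in rpb4Δ, so which was highest there was not resolved. In ubp8Δ the highest site was at 143 nt, with 10 reads (9.80%) in rpb4Δ and 313 reads (32.3%) in ubp8Δ, a ratio of 0.206 (0.0976 to 0.383). The neighbours at 145 and 146 nt had 1 and 0 reads in rpb4Δ and 114 and 86 reads in ubp8Δ, so that the stretch within 3 nt of the main ubp8Δ site held 10.8% of reads in rpb4Δ (6.13 to 18.3%) and 52.9% in ubp8Δ (49.8 to 56.1%).

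Elsewhere in DUN1 some sites were near level between the strains and others were not. The site at 109 nt had 6.72 RPM in rpb4Δ and 6.82 RPM in ubp8Δ, and the site at 133 nt had 5.93 RPM in rpb4Δ and 7.74 RPM in ubp8Δ, with intervals that included equality. The adjoining site at 132 nt had 2 reads in rpb4Δ and 52 in ubp8Δ, a ratio in RPM of 0.247 (0.0292 to 0.940). Farther out, the site at 222 nt had 6 reads in rpb4Δ and 0 in ubp8Δ. In the same direction, the site at 203 nt had 12 reads (4.74 RPM) in rpb4Δ and 0 in ubp8Δ. The ratio was at least 17.9 by the lower bound of the counting interval. It was 25.7 when 3 reads are taken as the floor of the ubp8Δ library, without counting error in the rpb4Δ reads. That site is followed by 6 genomic As. From 201 to 400 nt lay 27.5% of the reads in rpb4Δ (19.7 to 36.8%) and 5.57% in ubp8Δ (4.30 to 7.20%), and from 201 to 300 nt there were 9.09 RPM in rpb4Δ and 1.11 RPM in ubp8Δ, a ratio of 8.22 (4.25 to 16.2). Sites on both sides of 143 nt had larger shares in rpb4Δ, and the average position hardly separated the strains: it was 157 nt in rpb4Δ and 149 nt in ubp8Δ, a difference of 7.24 nt with an interval of -4.76 to 19.2 nt. The weighted median went the other way, at 133 nt in rpb4Δ and 143 nt in ubp8Δ.

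The overlap of the DUN1 profiles, the sum over positions of the smaller of the 2 shares, was 42.3%, against a background median of 65.7%, and 13.9% of ORFs had a lower overlap. It was 50.0% for RNR1, 74.9% for SML1, 82.9% for RNR2 and 94.2% for CRT10, and it is a measure that sampling lowers where reads are few. DUN1 converges with POL3, a DNA polymerase gene on the other strand whose ORF begins to overlap the DUN1 window at 142 nt, so the sites from 143 nt on lay opposite POL3 coding sequence. Within the DUN1 ORF there were 8.31 RPM in rpb4Δ and 7.92 RPM in ubp8Δ, or 17.1% of the signal in rpb4Δ (11.4 to 24.7%) and 11.7% in ubp8Δ (9.98 to 13.8%).

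**Figure D4:**
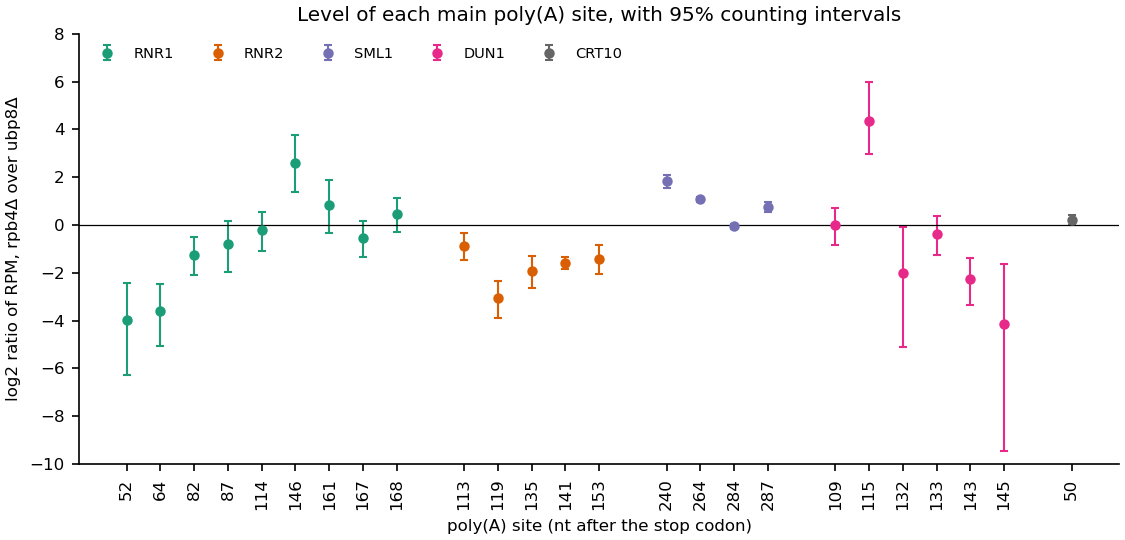
Log2 ratio of the RPM at each site that holds at least 5% of a gene's window reads in either strain, rpb4Δ over ubp8Δ, for the sites with reads in both; bars are 95% counting intervals and the x axis gives nt after the stop codon. The RNR1 sites at 52 and 64 nt lie at -3.98 and -3.60, the SML1 site at 284 nt at -0.06, and the DUN1 sites at 115 and 143 nt at 4.35 and -2.28.

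CRT10 (YOL063C, chrXV:207392-210265, minus strand), identified through its effect on RNR transcription, used practically a single site in both strains. At 50 nt lay 194 of 207 reads (93.7%) in rpb4Δ and 1080 of 1127 reads (95.8%) in ubp8Δ, and the site had 76.7 RPM in rpb4Δ and 66.4 RPM in ubp8Δ, a ratio of 1.16 (0.987 to 1.35). A TATATA match began 23 nt upstream of it. The window level was 81.9 RPM in rpb4Δ (71.1 to 93.8) and 69.2 RPM in ubp8Δ (65.3 to 73.4), a ratio of 1.18 (1.01 to 1.37). Its profile overlap exceeded that of 99.3% of background ORFs. The weighted average was 55.0 nt in rpb4Δ and 50.8 nt in ubp8Δ, and 2 of the rpb4Δ reads lay past 216 nt, where the MET22 ORF begins.

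Where the strains parted in CRT10 was inside the ORF. Reads there came to 13.1 RPM at 7 positions in rpb4Δ and 54.9 RPM at 54 positions in ubp8Δ, a ratio of 0.238 (0.163 to 0.336). They were 13.8% of ORF plus window signal in rpb4Δ (9.96 to 18.7%) and 44.2% in ubp8Δ (42.1 to 46.4%). Of the 5 genes CRT10 alone had an ORF share at least 10 percentage points lower in rpb4Δ, a rule set after the values had been seen, against 35.8% of background ORFs. The difference of CRT10 was -30.4 points, and 11.5% of background ORFs had a lower one. The median difference over the background was -4.42 points, so lower ORF shares in rpb4Δ, if mostly smaller ones, were a feature of the libraries as a whole. With ORF and window summed, the log2 ratio of CRT10 was -0.39, against 0.24 for the window alone.

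The median difference in weighted average was 4.23 nt over the 5 genes and -0.58 nt over the 4248 background ORFs, where the median size of a difference was 6.76 nt. The 4.23 nt is the value of CRT10, whose difference was 0 nt with the weighted median and with the highest position.

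**Figure D5:**
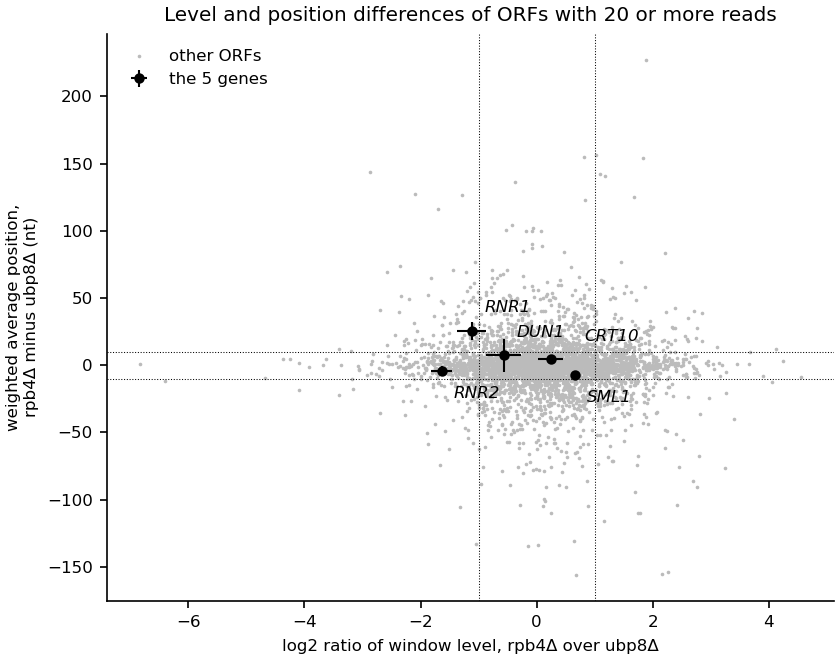
Difference in weighted average poly(A) position (nt, rpb4Δ minus ubp8Δ) against the log2 ratio of window level (rpb4Δ over ubp8Δ) for 4248 ORFs in grey, with the 5 genes in black and 95% counting intervals; dotted lines mark 10 nt and 2-fold. RNR1 is at 25.2 nt and -1.11, and RNR2 at -4.07 nt and -1.64.

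Related genes were read alongside, in 2 lists. Of 20 genes for nucleotide supply and for the regulation of RNR, 17 had at least 20 reads in both strains. Of these, 5 were at least 2-fold lower in rpb4Δ, against 11.4% of background ORFs (17.7% with no read minimum). Another 3 were at least 2-fold higher, against 19.0% (18.9% with no read minimum). The median log2 ratio was -0.44, against 0.15 over all ORFs tested. CYC8, a subunit of the Cyc8-Tup1 corepressor that acts on RNR genes, had the lowest ratio, with 8.73 RPM in rpb4Δ (22 reads) and 40.1 RPM in ubp8Δ (653 reads), a log2 ratio of -2.20 (-2.89 to -1.59). The next lowest was DFR1, the dihydrofolate reductase of thymidylate synthesis, with 22.5 RPM in rpb4Δ and 66.7 RPM in ubp8Δ, and KAP122, TRX1 and WTM2 were the others at least 2-fold lower. The 3 that were higher, named here with their values known, were DUT1, the dUTPase, at a log2 ratio of 1.89 (1608 RPM in rpb4Δ and 434 RPM in ubp8Δ), DRE2 at 1.31 and TRX2, a thioredoxin, at 1.29. The weighted average differed by at least 10 nt downstream in 4 of the 17 and upstream in 3, where 39.2% of background ORFs differed in either direction. TUP1, the partner of CYC8, was the farthest downstream, at 200 nt in rpb4Δ and 126 nt in ubp8Δ, followed by WTM2, a paralog of the gene for the nuclear anchor of the small subunit, at 272 nt in rpb4Δ and 202 nt in ubp8Δ. CDC21, the thymidylate synthase, was the farthest upstream, at 135 nt in rpb4Δ and 168 nt in ubp8Δ, followed by TRR1, the thioredoxin reductase, at 102 nt in rpb4Δ and 121 nt in ubp8Δ.

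Of 14 genes of the DNA damage and replication checkpoint, which acts upstream of DUN1, 10 had enough reads. In rpb4Δ 1 of them was at least 2-fold lower and 4 at least 2-fold higher, against 11.4% and 19.0% of background ORFs. With no read minimum the background shares were 17.7% and 18.9%. Their median log2 ratio was 0.54. RAD9, a checkpoint adaptor, had 27.7 RPM in rpb4Δ and 5.77 RPM in ubp8Δ, a log2 ratio of 2.26 (1.79 to 2.72). LCD1, also called DDC2, which encodes the partner of Mec1, had 8.31 RPM in rpb4Δ (21 reads) and 2.15 RPM in ubp8Δ (35 reads), a log2 ratio of 1.95 (1.09 to 2.77). MEC1 and DDC1 were the others at least 2-fold higher, and TEL1, a kinase related to Mec1, was the 1 lower, at -1.38, these being named with their values known. The weighted average differed by at least 10 nt upstream in 2 and downstream in 2 of the 10, where 39.2% of background ORFs differed in either direction. The ORFs that begin inside a window of the 8 genes added little to it. YIL067C, 339 nt after RNR3, OKP1 after RNR4 and RRN7, 364 nt after RNR2, had 0 of the member's window reads within them in both strains, and MET22 had only the 2 rpb4Δ reads of the CRT10 window given above.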

How the data were processed

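By the study's methods, the authors trimmed the tail-derived bases of 3′ READS reads, mapped 17 bases beyond them with Bowtie to SacCer3, allowing unique matches without mismatch, and kept reads whose As were not all genomic. The deposited files pool 2 replicates per strain and give RPM, scaled by the authors, for the highest site, the window and the ORF, and each position as a percent of the highest site, rounded to 2 decimals by the authors. Whole reads were recovered from the common step of the RPM values, of which all 4611 (rpb4Δ) and 4917 (ubp8Δ) used were multiples within 0.01 RPM, and the steps were tested on simulated data. With 1 pooled profile per strain no count test could be run. Weighted averages, Wilson shares and exact binomial ratios were computed in Python 3.11.15 with scipy 1.17.1, numpy 2.4.6 and pandas 2.3.3 (figures with matplotlib 3.10.9). ORF coordinates equalled those of RefSeq R64 for 5787 of 5795 ORFs and for all 8 genes. Members and lists were chosen with earlier results of these data known. From the lists, genes with at least 20 reads in both strains were named for the 2 highest and 2 lowest level ratios and the 2 largest position differences each way. NET-seq samples were not analysed here.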

Additional observations from a re-analysis of the deposited data

How the results depend on the processing

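The count of 1 gene with a weighted average at least 10 nt apart (RNR1) was the same with a 20 nt limit (19.8% of ORFs tested), with positions 1 to 300, up to the next same-strand gene and with sites of at least 5% (35.4 to 38.1%). It was 3 (RNR1, SML1 and DUN1) with the weighted median (26.1% of ORFs) and 3, the same genes, with the highest position (26.8%). It was 3 of the 4 genes with a value (RNR2, SML1 and DUN1) without positions followed by a genomic A (53.7% of 3711 ORFs). That setting removes 66.7% of the RNR1 reads in rpb4Δ and 67.6% in ubp8Δ and all but 1 of the CRT10 reads. It also removes 91.6% of the 263 RNR2 reads and 91.2% of the 102 DUN1 reads in rpb4Δ. The values of RNR2 and DUN1 under that setting therefore rest on few rpb4Δ reads. The RNR1 difference ranged from 2.89 to 104 nt and that of SML1 from -20.0 to -5.92 nt over 6 alternatives, whereas RNR2 (-31.3 to 1.12 nt) and DUN1 (-28.0 to 7.24 nt) did not keep their sign. CRT10 (0 to 4.23 nt) kept its sign in 2 of 5 alternatives and was 0 nt in the rest. The 104 nt came from the highest position, which for RNR1 in rpb4Δ rested on 21 reads. Level counts were 2, RNR1 and RNR2, under each scaling and window (28.9 to 30.8% of ORFs in either direction) and 3 at 1.5-fold (54.4%), where SML1, higher in rpb4Δ, joined them. The count of genes with the same highest site was 2 throughout (60.1 to 68.2%). With no read minimum, the shares of ORFs past 2-fold were 17.7% lower and 18.9% higher in rpb4Δ. Shares of weak sites move with depth: the RNR1 site counts of 18 in rpb4Δ and 37 in ubp8Δ were 18 and 22.9 at equal reads. No paired analysis was possible because the replicates are pooled, and for the same reason no replicate could be left out.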
